A study of Mus musculus with 6 samples.

Results

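The genes described here are 37 genes of the primary cilium, taken by symbol from a fixed list out of 23282 gene entries in the count files. They encode 11 subunits of the intraflagellar transport complex IFT-B, 3 subunits of IFT-A, 4 motor proteins, 8 Bardet-Biedl syndrome proteins, 3 small GTPases, 4 transition zone proteins and 4 proteins of the polycystin group. All 37 symbols were found, each as 1 entry. The RNA came from BMOL, a mouse liver progenitor cell line, in 6 libraries. Of these, 3 were labelled vector control and 3 were labelled TXNIP overexpressed, and the BMOL background was common to both groups. TXNIP is thioredoxin-interacting protein, an arrestin-family protein that binds thioredoxin and limits glucose uptake. The sources do not describe the promoter or vector that drove it. They also do not say whether replicate libraries were grown as separate cultures, so the p-values measure the spread between these libraries. Libraries were made to read the 3' ends of polyadenylated RNA, so counts were not scaled by gene length. No molecular identifiers are described, so copies of 1 fragment cannot be told from separate transcripts.

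The primary cilium is a microtubule-based antenna that grows from the mother centriole of most resting cells. IFT trains carry cargo along it, IFT-B outward with kinesin-II and IFT-A back with cytoplasmic dynein-2, while the BBSome, a coat of BBS proteins recruited by ARL6, moves membrane proteins through the transition zone, the gate at the cilium's base. In the liver, cholangiocytes and ductular progenitor cells carry a primary cilium whereas hepatocytes do not, and polycystin-1, polycystin-2 and fibrocystin sit in it; their loss gives cystic bile ducts.

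Total reads per library ran from 8725624 to 15119775, of which the 37 genes held 5273 to 16699. Levels below are CPM, the counts scaled to a common library size with TMM factors. Txnip was at 38.3, 9.63 and 10.8 CPM in vector controls 1, 2 and 3, and at 217, 299 and 290 CPM in the TXNIP libraries 1, 2 and 3, so it followed the labels (log2 fold change 3.82 ± 0.46 SE, 4.71 without control 1). Replicate 1 stood apart in each group: the chi-square of its counts against the others of its group was 23.7 to 28.3 per degree of freedom, beside 6.33 and 6.47 between replicates 2 and 3. The TXNIP libraries did not carry the markers of the labelled cell type. Of 12 ductular and progenitor markers, all 8 tested fell, 7 of the 12 had 0 reads in the TXNIP libraries (Krt7, Epcam and Sox9 among them), and their summed level was 2562 to 3681 CPM in the controls and 0.0907 to 1.55 CPM in the TXNIP libraries. All 12 leukocyte markers rose, from a sum of 72.6 to 92.3 CPM to one of 6894 to 7540 CPM, and Itgam and Adgre1 had 0 reads in every control. Of 6 tested hepatocyte markers 4 fell and 1 rose (Afp). The fall of Ttr, 1 of these 4, did not hold without control 1, TXNIP library 1 or TXNIP library 2. Of 2 tested mesenchymal and endothelial markers Egfl7 fell, while a rise of Acta2 did not hold without control 1, control 3, TXNIP library 1 or TXNIP library 3. Of 12 proliferation genes 2 rose and 3 fell, 6 of them without control 1, and their summed level was 2405 to 2951 CPM and 2365 to 2484 CPM. These shifts accompany every difference reported below, and their part in the results was not tested. In RNA from whole cultures, fewer cells of a type and less RNA per cell cannot be told apart.

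Cilium genes are known targets of the RFX transcription factors, which bind the X-box, an inverted repeat with the core GTTGCC. RefSeq promoter windows (GRCm38.p6, from 250 bases before to 50 bases after the start) were found for 32 of the 37 genes, not for Ift80, Ift81, Ift122, Tmem67 and Bicc1. A full X-box stood in the windows of 4 genes on either strand, Ift57, Bbs1, Tctn1 and Tctn2. That is 12.5% of the genes with a window, against 7.77% of 103 other cilium genes and 1.75% of all 27025 RefSeq genes. The core GTTGCC, which also lies inside some of the X-boxes, stood on either strand in 13 genes (40.6%), against 30.1% and 14.1%. Selected matches upstream of the start are printed from the RefSeq windows, from genes that were lower and from genes that did not pass the test. Upstream matches that are not printed lie in Ift57, which has a second X-box, and in Ift27. Capitals mark the X-box, and each sequence reads 5′ to 3′ on the strand of its gene.
Ift57 X-box, chr16:49699187-49699232 (+): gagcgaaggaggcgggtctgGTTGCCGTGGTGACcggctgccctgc
Tctn2 X-box, chr5:124598667-124598720 (+): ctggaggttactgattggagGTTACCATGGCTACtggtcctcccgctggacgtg

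In the next 4 sequences capitals mark the core alone, which in Ift140 lies on the opposite strand and therefore reads as its reverse complement.
Bbs7 core, chr3:36613485-36613530 (-): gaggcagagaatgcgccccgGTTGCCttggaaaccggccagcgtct
Kif3a core, chr11:53567251-53567296 (+): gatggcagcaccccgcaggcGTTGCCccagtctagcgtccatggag
Arl13b core, chr16:62847196-62847241 (-): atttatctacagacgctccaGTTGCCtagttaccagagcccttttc
Ift140 core, chr17:25015957-25016002 (+): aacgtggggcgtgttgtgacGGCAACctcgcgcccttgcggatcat

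All 4 genes with a full X-box were lower in the TXNIP libraries (Ift57, Bbs1, Tctn1 and Tctn2, the last with a call that some left-out libraries removed). Of all 32 genes with a window 15 were lower, these 4 included, as were 33.9% of all tested genes. The share lower among all genes with an X-box was not computed. Bbs1 had only 15 reads in the TXNIP libraries, and the last exon of Tctn1 overlaps that of Hvcn1. The core stood in 6 of 15 genes that were lower, in 6 of 15 that did not pass the test and in 1 of 2 that were higher. Bbs7 fell 6.26-fold, while Kif3a, Arl13b and Ift140 did not pass. A match is a description of the letters and not evidence of a bound site.

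**Figure D1:**
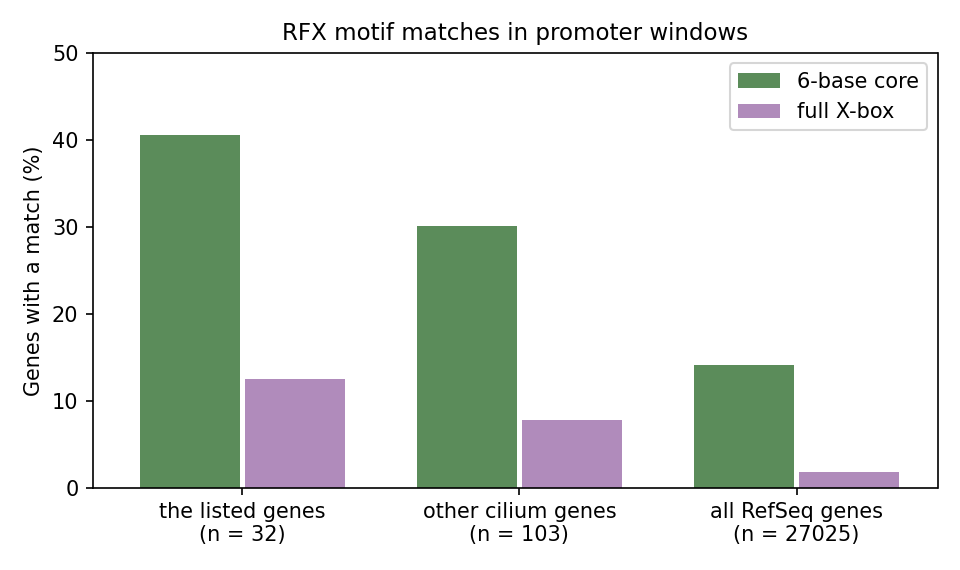
Percent of genes whose RefSeq promoter window holds the 6-base core of the RFX motif (green bars) or a full X-box (purple bars), for the 37 genes where a window was found (n = 32), other cilium genes (n = 103) and all RefSeq genes (n = 27025). Bars start at 0, and the core reaches 40.6%, 30.1% and 14.1% in that order.

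All 37 genes passed the filter on low counts, with all 37 at or above its cutoff of 0.919 CPM in every control and 32 in every TXNIP library. In edgeR's quasi-likelihood test, with p-values adjusted by Benjamini-Hochberg over 12088 genes and a threshold of 0.05, 19 of the 37 genes (51.4%) were lower in the TXNIP libraries and 2 (5.41%) were higher. The same test called 64.5% of all tested genes, 33.9% lower and 30.6% higher. The other 16 of the 37 did not pass. Without replicate 1 of both groups 18 were lower and 1 was higher. Controls and TXNIP libraries did not overlap for 26 of the 37 (70.3%), with the controls above for 23 and below for 3, a share close to the 70.4% of all tested genes. The median log2 fold change of the 37 genes was -0.76, beside -0.04 for all tested genes. Placing the genes at 0 reads at their bounds could not move this median, since those genes remain the lowest of the 37. The summed level of the 37 genes was 1103 ± 37.5 CPM in the controls and 570 ± 50.1 CPM in the TXNIP libraries (SD, n = 3 each). Bicc1 and Arl3 made up 61.6% of that difference, and without them the sums were 732 ± 55.4 and 527 ± 47.0 CPM. The fall was uneven: 10 genes were lower by more than 4-fold in mean level, and 16 of the called genes by at least 2-fold, beside subunits of the same complexes that did not pass the test.

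**Figure D2:**
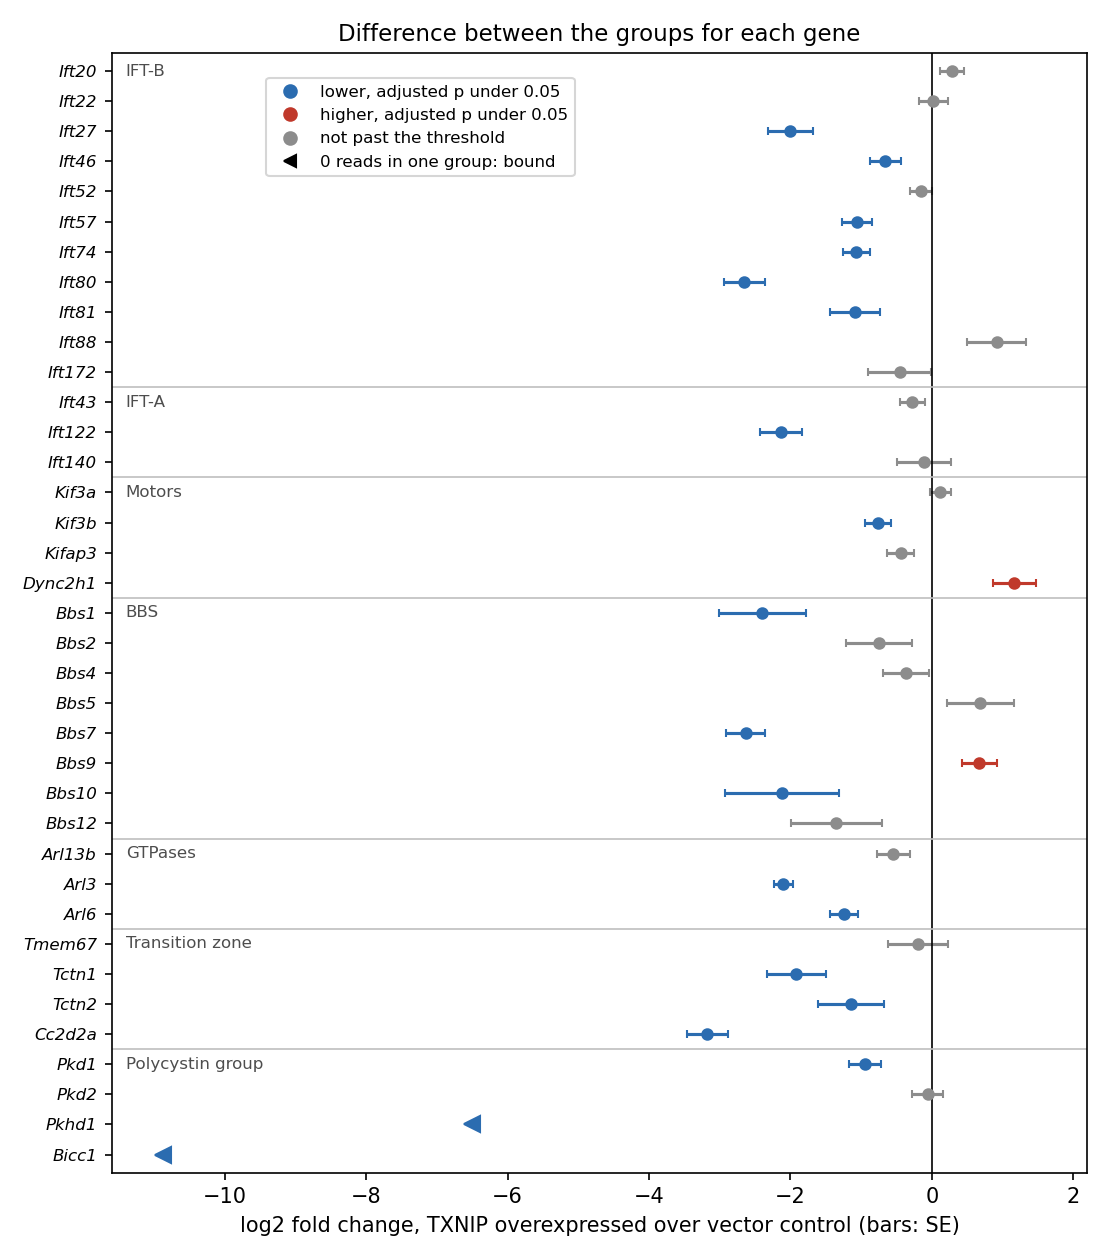
Fitted log2 fold change of each of the 37 genes, TXNIP libraries over vector controls, with bars of 1 SE; triangles stand for the bound of Bicc1 and Pkhd1, which had 0 reads in the TXNIP libraries. The genes are grouped by role, 19 lie below 0 past the test, and Dync2h1 and Bbs9 are the 2 that lie above it.

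The polycystin group held the largest differences of the 37 genes. Bicc1 encodes an RNA-binding protein whose loss gives kidney and bile duct cysts, and lies at chr10:70922832-71159700 (-, GRCm38). It stood at 158, 206 and 200 CPM in controls 1 to 3, from 7469 reads, and had 0 reads in all 3 TXNIP libraries. Set against a floor of 3 reads for the 3 libraries together, it was at least 1866-fold lower (adjusted p = 5.0e-10, edgeR quasi-likelihood test). Pkhd1, the gene of fibrocystin and of autosomal recessive polycystic disease, at chr1:20057779-20618064 (-), stood at 6.27, 9.70 and 11.4 CPM in the controls and had 0 reads in the TXNIP libraries. It was at least 90.5-fold lower (adjusted p = 4.1e-06). These bounds cover counting error only, since no molecular identifiers are described.

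The polycystins themselves differed from each other. Pkd1, which encodes polycystin-1, the large receptor-like partner of the channel, at chr17:24549834-24596508 (+), was at 30.9, 20.6 and 22.3 CPM in the controls and at 15.1, 13.0 and 10.2 CPM in the TXNIP libraries. Every control was above every TXNIP library, and the fitted log2 fold change was -0.95 ± 0.23 (SE, adjusted p = 0.0033). Pkd2, the gene of the channel subunit polycystin-2 at chr5:104459450-104505819 (+), was at 31.0, 17.7 and 25.6 CPM and at 20.9, 24.7 and 25.3 CPM. Its groups overlapped and it did not pass the test (log2 fold change -0.06 ± 0.22, adjusted p = 0.821). The ratio of Pkd1 to Pkd2 reads within a library, which needs no scaling, was 0.996, 1.16 and 0.872 in the controls and 0.722, 0.525 and 0.405 in the TXNIP libraries, again without overlap. The 3' end of Pkd1 overlaps that of Tsc2 on the opposite strand over 693 bases, and the use of strand in counting is not given. Tsc2 was also lower, at 39.1 ± 8.24 and 21.4 ± 1.87 CPM (SD, n = 3), so reads of this pair cannot be told apart in the shared bases.

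Of 12 genes that process, regulate or accompany the polycystins, 8 were lower, 3 were higher and 1 did not pass. The number lower was 6 without control 2, control 3 or TXNIP library 2. The 3 higher genes, Sec63, Sec61b and Dnajb11, rose 2.09-fold, 1.92-fold and 2.11-fold. Cys1, which encodes cystin, a lipid-anchored cilium protein, fell from 14.9 ± 1.74 CPM to 0 reads. Glis3 and Glis2, zinc-finger factors whose loss gives cystic or fibrotic kidneys, fell from 40.0 ± 6.26 CPM (1515 reads) to 2 reads and from 46.9 ± 12.3 CPM to 8 reads.

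The small GTPases are switches that mark or load the ciliary membrane. Arl3, which releases lipid-modified cargo inside the cilium, at chr19:46531096-46573198 (-), was at 192, 176 and 182 CPM in the controls and at 46.8, 37.9 and 43.2 CPM in the TXNIP libraries. The groups lay far apart relative to their spread, a 4.30-fold lower mean (log2 fold change -2.10 ± 0.13, adjusted p = 3.9e-08, edgeR). Arl6, the GTPase that recruits the BBSome to membranes, was at 27.9, 26.8 and 23.2 CPM and at 10.2, 11.9 and 10.7 CPM. It was 2.38-fold lower with no overlap (adjusted p = 0.00013). Arl13b, the exchange factor for ARL3 and a common marker of the ciliary membrane, was at 21.2, 17.3 and 14.8 CPM and at 13.5, 13.0 and 9.98 CPM. Its groups did not overlap, yet it missed the threshold (log2 fold change -0.54 ± 0.23, adjusted p = 0.056), and it passed without control 3 (0.046), with a replicate block (0.048) and with library size alone (0.035).

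The transition zone genes encode parts of the gate between cilium and cell body. Cc2d2a, a coiled-coil protein mutated in Meckel and Joubert syndromes, at chr5:43662346-43740972 (+), was at 23.4, 20.1 and 18.7 CPM in the controls and at 2.85, 2.42 and 1.63 CPM in the TXNIP libraries. It was 9.01-fold lower (log2 fold change -3.18 ± 0.29, adjusted p = 1.0e-06), with every control above 18 CPM and every TXNIP library under 3 CPM. Tctn1, a tectonic of the same gate, was 3.81-fold lower, from 5.92 ± 1.05 to 1.55 ± 0.312 CPM (SD, n = 3). Its last exon overlaps that of Hvcn1, a proton channel gene, over 1229 bases on the other strand, and Hvcn1 was lower as well, at 2.38 ± 0.207 and 0.531 ± 0.501 CPM, a call lost without TXNIP library 1 or 2 (adjusted p = 0.064 and 0.071). Tctn2 was 2.24-fold lower at the edge of the threshold (adjusted p = 0.049) and missed it without control 1, control 3, TXNIP library 1 or TXNIP library 3, where the adjusted p was 0.104, 0.115, 0.135 and 0.0939. A replicate block also ended the call (0.073). Tmem67, which encodes the receptor-like protein meckelin, was at 3.74 ± 1.03 and 3.28 ± 0.660 CPM and did not pass.

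Of 18 other tested transition zone genes, 13 were lower, 4 were higher and 1 did not pass. Tmem107 fell 5.44-fold from 75.8 ± 4.93 to 13.9 ± 1.45 CPM, Tmem231 fell 9.21-fold from 20.1 ± 2.83 to 2.19 ± 0.351 CPM and B9d1 fell 4.49-fold from 21.3 ± 3.03 to 4.75 ± 1.30 CPM. All 3 belong with Cc2d2a and the tectonics to the MKS module of the gate. Anks6, of the inversin compartment, fell from 4.87 ± 1.57 CPM to 0 reads. The number of lower genes was 10 to 12 with single libraries left out and 11 with a replicate block. The number of higher genes was 2 when any 1 of the 3 controls or TXNIP library 1 was left out.

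**Figure D3:**
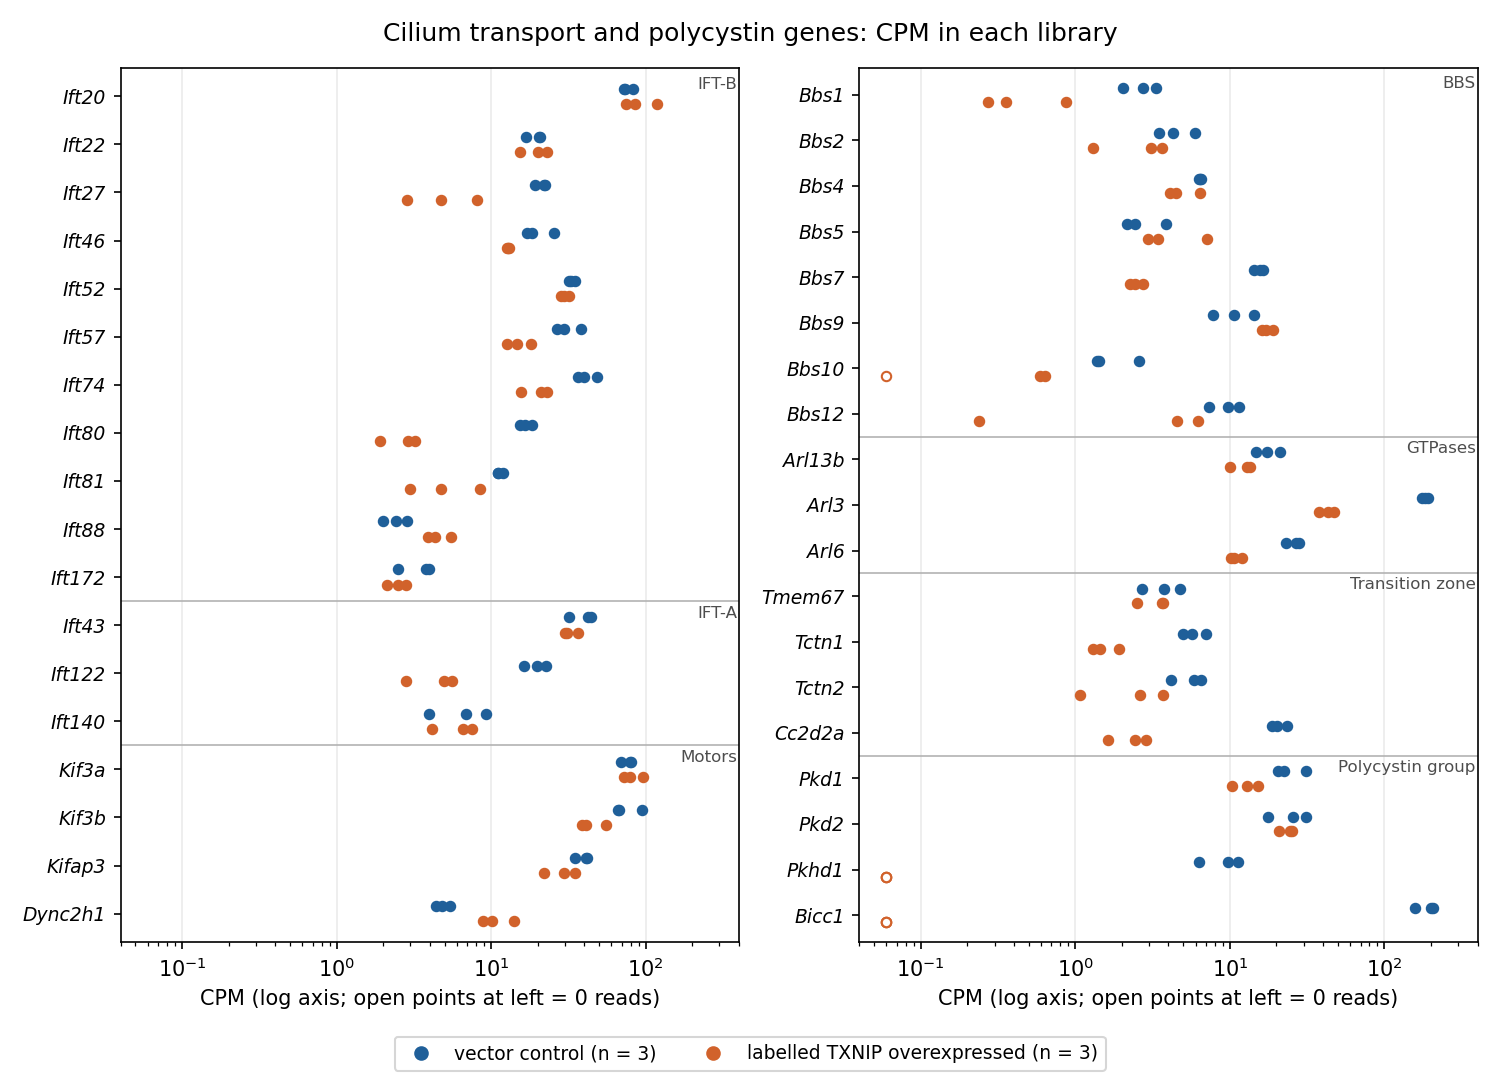
CPM of each of the 37 genes in each of the 6 libraries on a log axis, vector controls and TXNIP libraries in separate colours, genes grouped by role, with 0 reads drawn as open points at the left edge. Bicc1 and Pkhd1 are at 0 in the 3 TXNIP libraries, Cc2d2a lies between 1.63 and 2.85 CPM there, and the points of Pkd2 and Kif3a overlap between groups.

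Of the 11 IFT-B genes, 6 were lower and 5 did not pass the test. Ift27, a small GTPase-like subunit that links IFT trains to the exit of the BBSome, was at 22.3, 19.3 and 21.9 CPM in the controls and at 2.85, 4.74 and 8.07 CPM in the TXNIP libraries. It was 4.06-fold lower (log2 fold change -2.0 ± 0.32, adjusted p = 0.00015, edgeR) and the 3 TXNIP libraries differed among themselves more than the controls did. Ift80, a peripheral subunit mutated in Jeune thoracic dystrophy, at chr3:68892499-69004570 (-), was at 18.3, 15.3 and 16.6 CPM and at 3.21, 2.90 and 1.90 CPM. It was 6.26-fold lower (log2 fold change -2.65 ± 0.29), the widest fold of the listed IFT genes.

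Ift74 and Ift81 encode partners whose proteins bind tubulin together. Ift74 was at 48.6, 36.7 and 39.8 CPM in the controls and at 23.1, 21.0 and 15.7 CPM in the TXNIP libraries, 2.09-fold lower with no overlap (adjusted p = 0.00043). Ift81 was at 11.1, 11.9 and 11 CPM and at 8.44, 3.0 and 4.72 CPM, with an adjusted p of 0.018 that rose to 0.067 and 0.065 without TXNIP libraries 2 and 3. Ift57, of the peripheral part of IFT-B, was at 38.1, 29.8 and 26.8 CPM and at 14.6, 18.0 and 12.6 CPM. It was also 2.09-fold lower (adjusted p = 0.00077), and it carries the X-box printed above. Ift46, of the core, was at 25.5, 17.1 and 18.5 CPM and at 12.7, 13.0 and 12.8 CPM, and its adjusted p of 0.019 became 0.062, 0.0503 and 0.054 without control 1, TXNIP library 2 and TXNIP library 3.

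The 5 IFT-B genes that did not pass include central ones. Ift20, which also works at the Golgi, was at 82.3, 72.9 and 73.6 CPM in the controls and at 118, 85.3 and 74.7 CPM in the TXNIP libraries, with overlap (adjusted p = 0.163). Ift52, a core scaffold, was at 34.6, 33.1 and 31.8 CPM and at 29.6, 31.7 and 28.4 CPM. Its groups were separate but close, with a log2 fold change of -0.15 ± 0.16. Ift22 was at 19.3 ± 2.05 and 19.6 ± 3.83 CPM, Ift172 at 3.42 ± 0.814 and 2.48 ± 0.342 CPM, and Ift88, whose loss in mice gives cystic kidneys, at 2.43 ± 0.425 and 4.57 ± 0.806 CPM (SD, n = 3). Ift88 was higher in each TXNIP library than in any control but missed the threshold in edgeR (adjusted p = 0.069), while it passed in limma-voom (0.037). The ratio of Ift80 to Ift20 reads was 0.222, 0.210 and 0.225 in the controls and 0.0271, 0.0340 and 0.0255 in the TXNIP libraries, so the unequal change within IFT-B stands without any scaling between libraries.

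In IFT-A, which carries cargo back and lets membrane proteins in, 1 of 3 genes was lower. Ift122, of the core of IFT-A, was at 19.8, 16.3 and 22.7 CPM in the controls and at 4.99, 2.80 and 5.62 CPM in the TXNIP libraries. It was 4.38-fold lower without overlap (log2 fold change -2.13 ± 0.30, adjusted p = 4.6e-05, edgeR). Ift43 was at 44.0, 31.7 and 42.2 CPM and at 31.0, 36.5 and 29.8 CPM, with overlap (adjusted p = 0.194). Ift140 was at 9.24, 6.86 and 3.98 CPM and at 4.16, 7.54 and 6.62 CPM and showed no difference beyond its spread. Of 13 other tested IFT and dynein-2 genes 7 were lower, 2 were higher and 4 did not pass, and the number lower was 5 without TXNIP library 3 and 7 at most. Ttc26, an IFT-B gene, fell 8.04-fold from 27.7 ± 1.79 to 3.44 ± 0.325 CPM. Ttc30b, another, fell from 8.51 ± 1.91 to 0.817 ± 0.119 CPM, with the limit that reads of the near-identical Ttc30 copies may be split between them.

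The motors divided as well. Kif3a and Kif3b encode the motor subunits of kinesin-II. Kif3a was at 69.3, 79.2 and 79.8 CPM in the controls and at 96.7, 79.3 and 72.4 CPM in the TXNIP libraries and did not pass (log2 fold change 0.12 ± 0.15). Kif3b was at 95.2, 67.6 and 65.8 CPM and at 55.1, 38.7 and 41.1 CPM, 1.69-fold lower with no overlap (adjusted p = 0.0035, edgeR). The ratio of Kif3b to Kif3a reads was 1.37, 0.853 and 0.825 in the controls and 0.570, 0.488 and 0.568 in the TXNIP libraries. Kifap3, the gene of the accessory subunit that binds both, was at 35.0, 41.4 and 41.5 CPM and at 29.8, 22.1 and 34.9 CPM. It missed the threshold (adjusted p = 0.060) and passed without control 1 (0.043), without TXNIP library 3 (0.033) and with library size alone (0.034).

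Dync2h1, the heavy chain of the retrograde motor dynein-2, at chr9:6928503-7184446 (-), was at 4.84, 5.41 and 4.38 CPM in the controls and at 14.0, 10.2 and 8.80 CPM in the TXNIP libraries. It was 2.26-fold higher with no overlap (log2 fold change 1.17 ± 0.30, adjusted p = 0.0044, edgeR). Among the accessory chains of the same motor, Dync2li1, the light intermediate chain, moved the other way, from 28.5 ± 3.23 CPM (1085 reads) to 3 reads, all in TXNIP library 2. The pooled ratio was 277-fold lower, with an exact 95% interval of 94.7 to 1347 that covers counting error only. Tctex1d2, a light chain, rose 2.91-fold, from 28.3 ± 1.48 to 82.2 ± 6.60 CPM. Reads of Dync2li1 were 6.66, 4.94 and 6.07 times those of Dync2h1 in the controls and 0, 0.0286 and 0 times in the TXNIP libraries, so transcripts of 2 chains of 1 motor changed in opposite directions.

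Of the 8 BBS genes, 3 were lower, 1 was higher and 4 did not pass. Bbs7, a propeller subunit of the BBSome, at chr3:36573142-36613477 (-), was at 16.4, 15.7 and 14.2 CPM in the controls and at 2.26, 2.42 and 2.72 CPM in the TXNIP libraries. It was 6.26-fold lower, with libraries of each group close together (adjusted p = 4.4e-06, edgeR). Bbs1, the subunit that meets ARL6, was at 2.75, 3.33 and 2.02 CPM and at 0.357, 0.870 and 0.272 CPM (log2 fold change -2.40 ± 0.62, and -3.06 without TXNIP library 2). Bbs9, another subunit, was at 7.81, 14.3 and 10.6 CPM and at 17.2, 16.2 and 19.1 CPM, 1.60-fold higher. Its adjusted p was 0.033, and it missed the threshold without any single library other than control 2, at 0.0512 to 0.10. The ratio of Bbs7 to Bbs9 reads was 2.10, 1.09 and 1.34 in the controls and 0.131, 0.149 and 0.142 in the TXNIP libraries.

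Bbs10 and Bbs12 encode chaperonin-like proteins that help to assemble the BBSome. Bbs10 was at 1.43, 2.56 and 1.37 CPM and at 0.594, 0 and 0.635 CPM. Its adjusted p of 0.035 rose to 0.129, 0.064, 0.104 and 0.056 without control 2 and without TXNIP libraries 1, 2 and 3, and to 0.089 with a replicate block. Bbs12 was at 9.68, 7.35 and 11.5 CPM and at 0.238, 6.19 and 4.53 CPM, where TXNIP library 1 lay far under the others, and it missed the threshold with all libraries (adjusted p = 0.087). It passed without TXNIP library 2 (0.043) and in limma-voom with all libraries (0.045). Among the BBSome subunit genes Bbs2, Bbs4 and Bbs5 did not pass, with means of 4.57 and 2.68 CPM, 6.4 and 4.98 CPM, and 2.81 and 4.52 CPM in controls and TXNIP libraries. Of 13 other genes of BBSome assembly and cargo sorting 6 were lower, 2 were higher and 5 did not pass. Arl2bp, an ARL2 and ARL3 binding protein, fell 14.8-fold from 171 ± 14.1 to 11.6 ± 2.43 CPM, and Rab3ip, the exchange factor that starts ciliary membrane growth through RAB8, fell 8.38-fold from 115 ± 8.46 to 13.7 ± 2.66 CPM. The cargo adaptors Unc119 and Unc119b, whose cargo ARL3 releases, moved in opposite directions, Unc119 from 14.8 ± 1.05 to 41.3 ± 0.632 CPM and Unc119b from 46.5 ± 2.93 to 15.3 ± 4.77 CPM.

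Of 10 genes of the RFX family or of other factors linked to cilia, 6 could be tested. Among these, 3 were lower and none was higher with all libraries (1 gene, Rfx5, rose without control 1). Rfx3, which acts on primary and motile cilium genes, was at 14.5, 14.3 and 14.7 CPM in the controls, 563 reads in all, and left 1 read in the TXNIP libraries. The pooled ratio was 432-fold lower, with an exact 95% interval of 77.2 to 17084. Rfx2 was at 6.27, 3.47 and 2.74 CPM and at 0.357, 0.290 and 0.272 CPM, 13.6-fold lower (adjusted p = 0.00020, edgeR). Foxj1, the regulator of motile cilia, was at 200.1, 138 and 143 CPM in the controls and had 0 reads in the TXNIP libraries, at least 1591-fold lower. Rfx1, Rfx5 and Rfx7 did not pass, at 22.5 ± 1.73 and 17.9 ± 2.02 CPM, 8.5 ± 3.59 and 13.0 ± 0.735 CPM, and 31.5 ± 3.72 and 35.2 ± 5.22 CPM. Rfx4, Mcidas and Gmnc had 0 reads in all 6 libraries. Of 10 motile cilium genes with an entry, 2 could be tested, Dnaaf1 and Ccdc39, and neither passed, while Dnah5, Dnah9, Rsph4a, Hydin and Spag6l had 0 reads in every library.

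**Figure D4:**
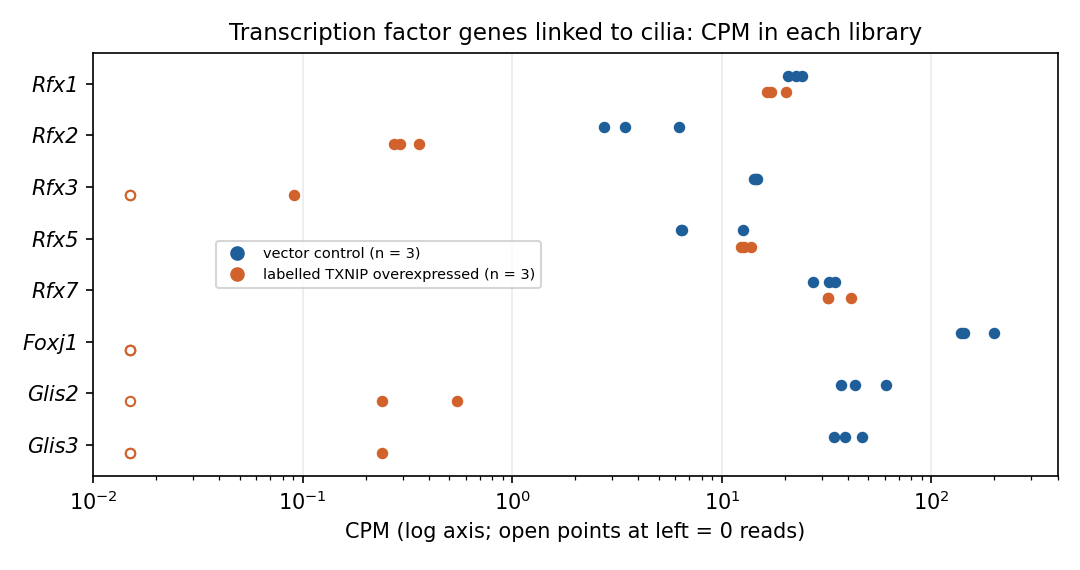
CPM of RFX family genes and of other transcription factor genes linked to cilia in each library on a log axis, with 0 reads as open points at the left edge. Foxj1 lies at 138 to 200.1 CPM in the 3 controls and at 0 in the 3 TXNIP libraries, Rfx3 and Rfx2 are separated, and Rfx5 and Rfx7 overlap between groups.

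Signalling genes that depend on the cilium were looked up beside the transport genes. Of 18 hedgehog genes 7 could be tested: 5 were lower, 1 was higher and 1 did not pass. Of the 18, 12 had 0 reads in the TXNIP libraries, but 5 of these 12 also had 0 reads in every control. Smo, the transducer that enters the cilium, was at 18.3, 35.8 and 33.4 CPM in the controls and at 0.594, 0.774 and 0 CPM in the TXNIP libraries. Gli3 and Cdon fell from 28.0 ± 10.8 and 13.9 ± 1.76 CPM to 0 reads. Gli1, a target gene of the pathway, was counted 1, 0 and 4 times in the controls and 304, 356 and 418 times in the TXNIP libraries. Its 3' end overlaps that of Arhgap9, a gene of blood cells, over 62 bases, and Arhgap9 was counted 1, 0 and 4 times in the controls and 415, 643 and 696 times in the TXNIP libraries, so the reads of these neighbours may not be separable. Of 9 tested genes of cilium disassembly 5 were lower, 1 was higher and 3 did not pass. The number lower was 3 without TXNIP library 2, and none was higher without control 3 or TXNIP library 1 or 3. Hdac6, the tubulin deacetylase of cilium resorption, fell 4.01-fold from 40.7 ± 7.05 to 10.1 ± 1.58 CPM, and Nedd9, the scaffold that activates aurora A, fell from 53.2 ± 8.35 to 0.161 ± 0.279 CPM.

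At the basal body, from which the cilium grows, 3 of 13 tested genes were lower, 3 were higher and 7 did not pass. Without TXNIP library 1, 6 were lower and 4 were higher, and without TXNIP library 2, 4 were lower and 2 were higher. Dzip1l, a basal body protein mutated in a recessive polycystic kidney disease, fell from 21.3 ± 3.27 CPM to 0 reads, and Fbf1, of the distal appendages, fell 3.47-fold from 24.7 ± 3.64 to 7.11 ± 1.90 CPM. Cep83, which anchors those appendages, rose 2.90-fold from 24.5 ± 0.800 to 71.0 ± 25.4 CPM. Over all the other cilium lists together, 50 of 93 tested genes were lower and 16 were higher, with a median log2 fold change of -0.58. Among all tested genes 33.9% were lower and 30.6% were higher, with a median of -0.04. These shares are also the background for the count of each single list.

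**Figure D5:**
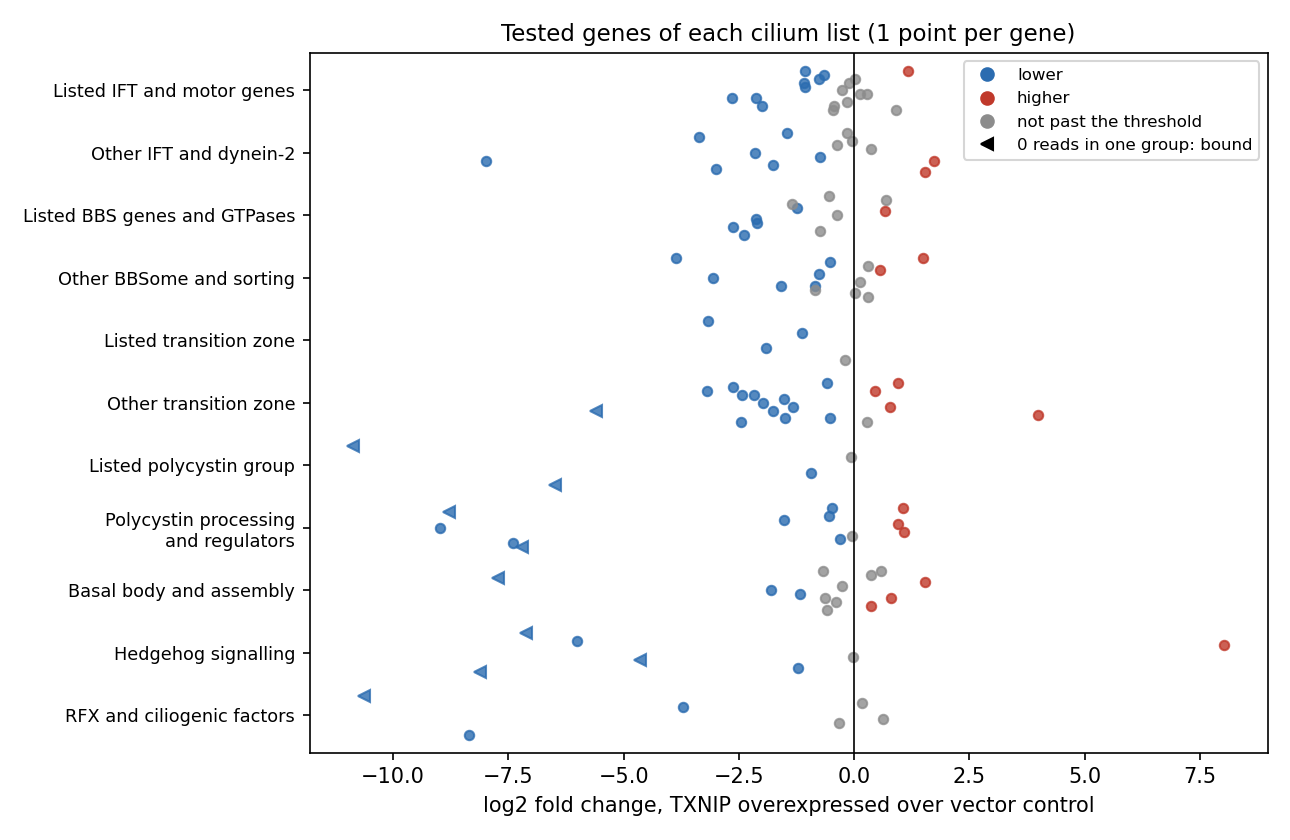
Log2 fold change of each tested gene, TXNIP libraries over vector controls, for the 37 genes by role and for the other cilium lists, 1 point per gene, coloured by the edgeR call; triangles are bounds of genes with 0 reads in the TXNIP libraries. Genes past the test lie on both sides of 0 in most lists, and Gli1 at 8.02 is the highest point.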

How the data were processed

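RNA of 6 libraries was prepared with a QuantSeq 3' kit and sequenced single-end, per the labels' protocols and design text. The authors deposited whole-number, unnormalized counts of reads for each gene symbol, made with Bowtie2, bedtools and the build mm10, per the submitters' processing notes. Roles, versions, annotation, strand use and duplicate handling are not stated there. No molecular identifiers are described, so floors and intervals cover counting error only.

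Counts were filtered with filterByExpr at its defaults (12088 of 23282 entries), scaled by TMM factors of 0.965 to 1.04 and tested with edgeR 4.0.16 (R 4.3.3) by its two-sided quasi-likelihood test with robust dispersions, group being the only term. P-values were adjusted by Benjamini-Hochberg over all tested genes. Log2 fold changes are TXNIP minus vector control, and depend on the prior count where a group had few reads. The standard error given with them is the absolute log2 fold change divided by the square root of the test's F statistic. A group without reads was set at a floor of 3 reads, and groups with 1 to 3 reads are given as pooled ratios. Gene positions and overlapping 3' ends are from GENCODE M21 (GRCm38, which is mm10), and promoter windows from RefSeq. The edgeR fit was tested on simulated data, in which far fewer genes changed than were called here.

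The genes and all lists were chosen with earlier results of these data known. Full statistics were given to genes of at least 20 CPM on average in either group, or with no read in 1 group and at least 5 CPM in the other, and to at most 4 genes of lowest adjusted p in each other list. Of the rest, Ift80, Ift81, Ift88, Ift122, Ift140, Dync2h1, Arl13b, Tctn1, Tctn2 and the BBS genes were described further after their values were seen. The folds of Sec63, Sec61b and Dnajb11 were also added after their values were seen. Alternatives were RLE factors, library size alone, no filter, limma-voom (limma 3.58.1), DESeq2 1.42.0, at least 5 CPM in 3 libraries, a replicate block, a threshold of 0.01, a fold of at least 1.5, removal of the ribosomal entry Rn45s and of genes with overlapping 3' ends, and each library left out. The fit without replicate 1 of both groups was added after seeing the data. The values of 1 context gene, which stays in the counts of its lists, are not reported here. Plots were drawn with matplotlib 3.10.9.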

Additional observations from a re-analysis of the deposited data

How the results depend on the processing

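Of the 19 lower genes, 13 kept their call under each of the 17 alternatives in which they could be tested, and 15 without each library in turn, and all 19 were called by DESeq2 and by limma-voom too. Dync2h1 kept its call throughout. Leaving out each library gave 16 to 19 lower and 1 to 2 higher genes, and a median log2 fold change of -0.92 to -0.58. The count of higher genes was 1 with library size alone, a threshold of 0.01, a fold of at least 1.5, or without replicate 1 of both groups, and 3 in limma-voom, which added Ift88. The count of lower genes was 21 with library size alone and 20 in limma-voom. The median was -0.96 with a filter of 5 CPM, where 29 of the 37 genes were tested. Higher genes among the other cilium lists numbered 10 at an adjusted p of 0.01 and 9 at a minimum fold of 1.5, where all higher genes numbered 2382. These stricter rules left 15 and 13 of the lower genes.

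Signs turned only for genes that did not pass the test. The log2 fold change of Ift22 was -0.05 with library size alone, -0.07 without replicate 1 of both groups, and -0.10 to 0.18 with single libraries left out. That of Pkd2 was 0.01 in limma-voom, 0.20 without replicate 1 of both groups and -0.26 to 0.12 otherwise. Ift140 took 0.38 without replicate 1 of both groups and -0.39 to 0.18 with single libraries left out, Tmem67 took -0.39 to 0.03, and Kif3a took -0.07 without replicate 1 of both groups. The cause was not tested.

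With the replicate number as a block (replicate block), 18 genes were lower and 2 higher, with a median of -0.78: Tctn2 and Bbs10 were lost (adjusted p = 0.073 and 0.089) and Arl13b was gained (0.048). Same-numbered libraries correlated at 0.0954, 0.0422 and 0.05 in their deviations, and each library correlated best with the one of its own number. The margin was small for numbers 2 and 3: control 2 correlated with TXNIP library 3 at 0.0414, and control 3 with TXNIP library 2 at 0.0308. Replicate 1 of each group correlated with replicates 2 and 3 of the other group at -0.067 to -0.0531. Whether same-numbered libraries shared a batch or preparation was not tested. Without the genes whose 3' ends overlap a neighbour, 17 were lower and 2 higher. The calls of Bbs10 and Tctn2 were each lost when any of 4 libraries was left out, and the part of depth in this was not tested.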
